A study of Homo sapiens with 402 samples.

Results

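Squamous differentiation is the program by which a stratified epithelium builds a tough outer layer. Its late products are envelope precursors such as involucrin (IVL) and the small proline-rich proteins (SPRR1A, SPRR1B, SPRR3), which transglutaminase 1 (TGM1) crosslinks into an insoluble shell under the plasma membrane. Desmosomes, which contain the cadherin desmoglein 3 (DSG3), hold the layers together, and the products of surface and secretory cells include the transmembrane mucin MUC1 and the iron-siderophore binding protein lipocalin 2 (LCN2). The calcium-activated chloride channel regulator CLCA2 and SDCBP2, the PDZ-domain scaffold protein syntenin-2, complete the 10 genes described here. They were chosen by name as cornified envelope and squamous differentiation genes, with earlier results of the same comparisons in view, so their levels against controls below are a description and not a test. The files list 34718 gene symbols for 4 of the plates, with all 10 genes among them, and 15081 for the plate of DDE, with 7 of the 10. SPRR1A, SPRR1B and SPRR3 are the 3 that the DDE files do not list.

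The cells were MCF10A, a non-tumorigenic line of human breast epithelium labelled wild type, each well exposed for 48 h to one of 21 chemicals at a dose of 0.025, 0.25, 2.5 or 25 µM before RNA sequencing. Of 402 libraries, 401 were analysed, of which 332 were dosed and 69 were controls. Plates are named here by what they held and were told apart by the plate barcode in the library names and the suffix that follows it. The DDE plate has the barcode of the PFAS plate with another suffix. The metals plate had 15 water controls for mercury, lead, copper, cadmium and arsenic, all dissolved in water. The bisphenol plate (BPA, BPF, BPS, with MPB and PPB) and the thiram plate (thiram, PCB153, PCB187, DCB_14, DCP_25) each had 15 DMSO controls, and their chemicals were in DMSO. On the PFAS plate PFOA was in water, beside 4 water controls, whereas phenanthrene, PFOS, PFNA and PFDA shared 12 DMSO controls. DDE, labelled as given in DMSO, was on the fifth plate, and the 8 controls with the barcode and suffix of that plate are labelled as water controls of the metals plate. A dosed group had 4 libraries, which the labels call biological replicates, except MPB and PPB at 0.025 µM with 3 and cadmium at 25 µM with 2. A further cadmium library at that dose carries the barcode of the thiram plate and was set aside. All p-values measure the spread between wells of a single cell line.

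Median total counts per plate were between 6.42 and 13.8 M (M, mega), and single libraries had from 1.43 to 25.8 M. The 2 cadmium libraries at 25 µM had 1.43 and 1.45 M, and those of thiram at 25 µM had 2.46 to 6.29 M. Depth also followed the replicate numbers: the first 8 controls of the metals plate had a median of 20.9 M counts and the last 7 had 3.17 M. On the thiram plate these medians were 17.9 and 3.18 M. Values within the first set (dosed replicates 1 and 2 with the first controls) and the second set (replicates 3 and 4 with the last controls) are therefore given for results whose call at 25 µM differed between the sets. Basal epithelial markers were present in controls, such as KRT5 with plate medians of 1081 to 4506 CPM (counts scaled to effective library size). The basal markers TP63 and KRT14 had lowest plate medians of 1.80 and 8.99 CPM. Of the luminal markers KRT8, KRT18, GATA3 and FOXA1 were also present, with lowest plate medians of 377, 404, 19.8 and 5.62 CPM. ESR1, PGR, KRT19, PTPRC, CD68 and VWF had plate medians at or under 0.243 CPM, while those of COL1A1 and PECAM1 reached 15.8 and 4.77 CPM. Of the genes that name the group, the envelope precursors were scarcely detected: SPRR3 was at 0 in 371 of 377 libraries, SPRR1A in 356 and SPRR1B in 265, and IVL was at 0 in 309 of 401. TGM1, DSG3, CLCA2, SDCBP2 and MUC1 were detected in nearly every library, with 3, 0, 6, 1 and 0 libraries at 0.

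Promoters were read because several of the genes moved together in the data. The 250 bases before the start of a gene are shown for 6 windows that carry a motif and belong to genes that differed from controls in opposite directions, or, for IVL, to an envelope precursor at the limit of detection. Sequences are from RefSeq (GRCh38.p14), on the strand of the gene, 5′ to 3′. Capitals mark the AP-1 motif TGANTCA, which reads the same on both strands, and in the last window the antioxidant response core TGACNNNGC, found there on the opposite strand.

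SPRR1B, chr1:153030953-153031202: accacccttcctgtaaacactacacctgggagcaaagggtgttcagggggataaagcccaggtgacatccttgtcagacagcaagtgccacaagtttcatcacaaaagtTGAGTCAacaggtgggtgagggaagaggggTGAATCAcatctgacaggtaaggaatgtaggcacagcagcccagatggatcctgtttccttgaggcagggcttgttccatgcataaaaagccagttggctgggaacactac
IVL, chr1:152908296-152908545: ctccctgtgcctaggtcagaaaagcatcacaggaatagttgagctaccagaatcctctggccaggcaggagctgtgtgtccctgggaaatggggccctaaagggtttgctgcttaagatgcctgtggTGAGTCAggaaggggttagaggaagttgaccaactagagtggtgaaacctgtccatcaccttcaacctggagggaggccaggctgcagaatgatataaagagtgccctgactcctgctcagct
CLCA2, chr1:86423921-86424170: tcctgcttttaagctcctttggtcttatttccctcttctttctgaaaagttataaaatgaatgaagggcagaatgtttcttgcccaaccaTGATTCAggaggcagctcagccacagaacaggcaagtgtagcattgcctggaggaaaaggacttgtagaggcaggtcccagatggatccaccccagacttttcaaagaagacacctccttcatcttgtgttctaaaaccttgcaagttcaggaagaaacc
LCN2, chr9:128149203-128149452: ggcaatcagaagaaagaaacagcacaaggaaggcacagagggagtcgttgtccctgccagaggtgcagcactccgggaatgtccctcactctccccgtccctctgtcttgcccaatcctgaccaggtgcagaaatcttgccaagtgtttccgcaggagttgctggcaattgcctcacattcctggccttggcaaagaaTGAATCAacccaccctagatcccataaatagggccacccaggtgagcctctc
SDCBP2, chr20:1329140-1329389: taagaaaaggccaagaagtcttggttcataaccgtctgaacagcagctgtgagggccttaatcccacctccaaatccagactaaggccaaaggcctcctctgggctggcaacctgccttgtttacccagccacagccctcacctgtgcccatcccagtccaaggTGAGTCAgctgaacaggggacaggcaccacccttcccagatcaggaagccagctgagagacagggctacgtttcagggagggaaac
SDCBP2, chr20:1325870-1326119: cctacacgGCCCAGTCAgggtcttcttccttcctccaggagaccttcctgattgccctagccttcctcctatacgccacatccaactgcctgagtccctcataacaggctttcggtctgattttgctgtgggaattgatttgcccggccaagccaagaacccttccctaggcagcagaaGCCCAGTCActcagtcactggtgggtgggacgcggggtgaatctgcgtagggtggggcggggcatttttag

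The AP-1 letters were found in 7 of the 9 genes with a window (CLCA2, SPRR1A, SPRR1B, SPRR3, IVL, LCN2 and SDCBP2). They were in 6.57% of 35116 windows of the same length. The 9 genes had 12 windows, so a count of genes and a share of windows are unlike measures. Of CLCA2, DSG3 and TGM1, lower together below, CLCA2 held the letters, DSG3 did not and TGM1 had no window. MUC1 did not hold them. The letters begin 52 bases before the start in LCN2, 86 in the SDCBP2 window, 108 in SPRR1A and 123 in IVL. In CLCA2 they begin 160 bases before the start and in SPRR3 170, and SPRR1B holds them at 141 and 111 bases. The antioxidant core was found in 1 of the 9 genes, SDCBP2, at 242 and 71 bases before the start of that window, and in 10.9% of all windows. Another motif, the metal response core TGCNCNC, was found in 5 of the 9 genes and in 49.1% of all windows. All motifs were searched on both strands. SPRR1A, SPRR1B, SPRR3 and IVL lie close together on chromosome 1, between 152908546 and 153032900, and MUC1 and CLCA2 lie elsewhere on that chromosome. TGM1 is on chromosome 14 (24249114 to 24263177), DSG3 on chromosome 18 (31447741 to 31478702), LCN2 on chromosome 9 (128149453 to 128153453) and SDCBP2 on chromosome 20 (1309909 to 1329139).

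At 25 µM 4 of the genes split in the same way under 4 metals and thiram. SDCBP2 was higher and CLCA2, TGM1 and DSG3 were lower than in the controls of the plate under arsenic, cadmium, copper, lead and thiram. The lower direction was not confined to these chemicals. Called or not, the difference was below 0 for CLCA2 in 20 of 21 chemicals, for DSG3 in 19 and for TGM1 in 18. SDCBP2 was above 0 in 12 of 21. A gene was called where edgeR's quasi-likelihood test, adjusted over all genes of the plate, gave an adjusted p under 0.05. Of 165 pairs of a gene and a chemical at 25 µM, 25 were called, 6 higher and 19 lower, spread over 6 of the 21 chemicals. Arsenic had 7 of 9 tested genes called, thiram 5 of 8, cadmium, copper and lead 4 of 9 each, and DDE 1 of 5. Over all genes of the plate, the share called was 2.28% in lead, 3.05% in copper, 3.88% in DDE, 25.5% in cadmium, 30.8% in thiram and 39.7% in arsenic. Since the genes were picked with these contrasts in view, nothing is read from the counts against those shares.

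**Figure D1:**
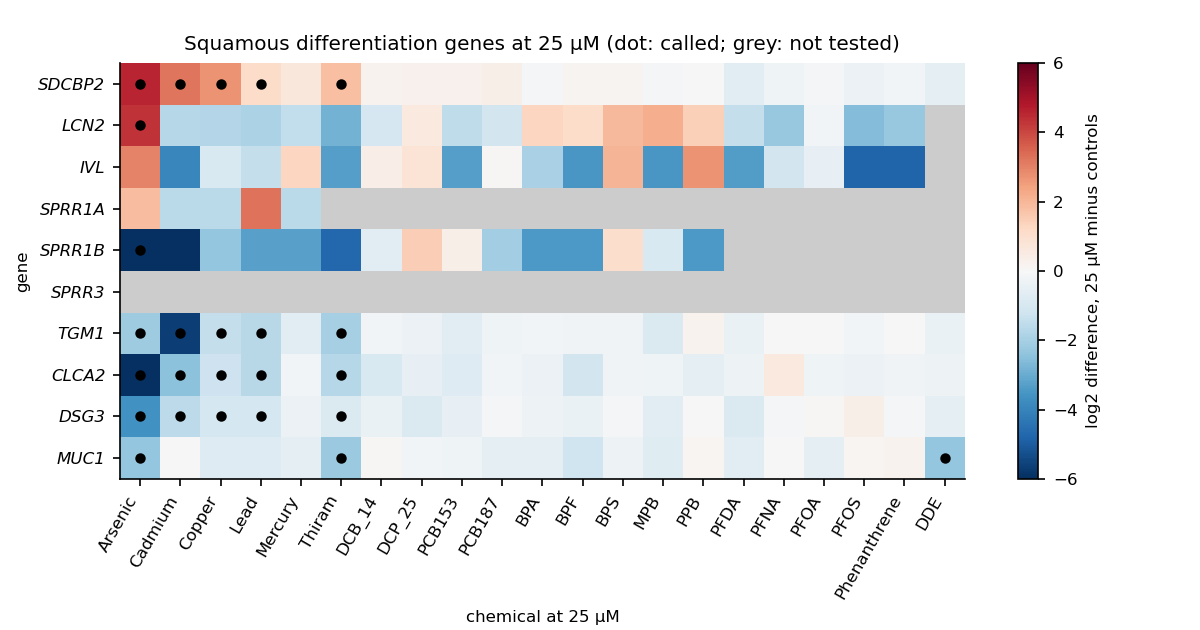
Heat map of the log2 difference between 25 µM and controls, for each gene (rows) and chemical (columns). Controls are those of the same plate and solvent, except for DDE. The DDE controls share its barcode and suffix but are labelled as water controls of the metals plate. Red is higher, blue lower, colours are held at 6 in either direction, dots mark called genes and grey marks genes not tested. The 5 columns with SDCBP2 called higher are also those with TGM1, CLCA2 and DSG3 called lower; strong colours without a dot in the rows of IVL, LCN2 and the SPRR genes rest on very few counts.

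More calls were made at 25 µM than at the lower doses. At 2.5 µM there were 9 of 165, 1 higher and 8 lower, and they belonged to arsenic, copper and lead, for which 1.93%, 1.63% and 0.395% of all genes were called. At 0.25 µM the 1 call was SDCBP2 under PCB153, where 0.244% of all genes were called. It rested on a single library at 224.5 CPM beside 11.6, 14.98 and 17.8 CPM in the other 3, and the log2 difference of 2.28 was 0.09 without that library. The count at 0.25 µM rested on the method: DESeq2 called 8 of the pairs at that dose, and edgeR with 1 dispersion for all genes called 6. At 0.025 µM edgeR called 0 of 165 and DESeq2 also called 0, and 15 had an unadjusted p under 0.05. A linear trend over the 4 doses, which uses no controls, called 7 of the 9 genes for arsenic (26.4% of all genes), 4 for cadmium (20.3%), 3 of 8 for thiram (20.2%), 1 for copper (0.976%) and 2 for lead (0.473%). In copper and lead the libraries with the same replicate number deviated together, and with the replicate number as a replicate block the trend called 4 of 7 tested genes for copper and 5 of 7 for lead. With the block 7.56% of all genes were called for copper and 7.8% for lead. Those for copper were SDCBP2 with a rising trend and TGM1, MUC1 and LCN2 with falling ones, and those for lead were SDCBP2 rising and CLCA2, TGM1, DSG3 and MUC1 falling. The lead trend without the block depended on which replicates were kept. Leaving out a replicate number removed every dosed library of the plate with that number. Without replicate 1 the fit called 0 genes, and without replicate 2 or 4 it called 1.

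The envelope precursors among the 10 genes were near the limit of detection in most groups. The highest SPRR1B value of the series was 13.1 CPM, in 1 of the cadmium libraries at 2.5 µM, whose other 3 had 0.922 to 1.51 CPM. Among controls SPRR1B was best detected in the controls of the metals plate, with a median of 0.78 CPM and a highest value of 4.90, and 3 of those 15 controls were at 0. All 4 arsenic libraries at 25 µM were at 0 for SPRR1B. With a floor of 3 counts summed over the group this is a level at least 14.2-fold lower than in the controls, and it was called, though not in the second set alone. The group medians of SPRR1B under arsenic were 1.22, 0.53, 0.0285 and 0 CPM from the lowest to the highest dose. Its relative SPRR1A is near-identical in parts of its sequence, and how reads shared by such copies were counted is not given in the sources used here, so both are uncertain. SPRR1A had 4 counts in all over the 15 controls of that plate and at most 18 counts in any of its 25 µM groups (lead, at 0, 0.507, 0.531 and 0 CPM), and it was not called for any of the 5 chemicals in which it was tested.

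SPRR3 had 70 counts in the whole series and passed the filter on low counts on no plate. These counts lay in 6 libraries: 2 of arsenic at 25 µM (0.643 and 2.15 CPM), 2 of thiram at 25 µM (0.351 and 4.73 CPM), 1 of mercury at 25 µM (0.372 CPM) and 1 DMSO control of the thiram plate (1.01 CPM). All the dosed libraries with a SPRR3 read were thus at the highest dose, and the other libraries of the same 3 groups were at 0. IVL, the involucrin gene, had values of 0, 0.718, 1.30 and 2.23 CPM in the arsenic libraries at 25 µM, 2 of them above the highest of the 15 controls (1.23 CPM, with 13 controls at 0). Its log2 difference of 2.97 ± 1.59 (SE) was not called with all libraries. In the second set alone, where all 7 controls were at 0, it was called. No other chemical had IVL called at any dose. In thiram at 25 µM IVL was at 0 in all 4 libraries, and 14 of the 15 controls of the plate were also at 0.

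TGM1, the crosslinking enzyme of the envelope, was lower under 4 metals and thiram. The controls of the metals plate had 14.2 to 59.2 CPM with a median of 35.2. The arsenic libraries at 25 µM had 6.86, 8.50, 8.98 and 6.54 CPM, the lead libraries 7.61, 11.6, 11.3 and 11.8 CPM, and the copper libraries 11.9, 12.3, 15.7 and 9.79 CPM. All arsenic and lead libraries and 3 of the 4 copper libraries lay below every control. The log2 differences were -2.14 ± 0.26 (SE) for arsenic, -1.69 ± 0.25 for lead and -1.45 ± 0.24 for copper. Mercury, on the same plate, had 17.04 to 24.6 CPM at 25 µM, all within the control range, and a log2 difference of -0.63 ± 0.23 that was not called.

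The 2 cadmium libraries at 25 µM held 1 count of TGM1 between them, against 6432 in the 15 controls. The ratio of the pooled control level to the cadmium level was 52.1, with an exact 95% interval of 9.35 to 2060 that covers counting error only. Under thiram at 25 µM TGM1 had 10.1, 3.87, 0 and 0 CPM against 5.66 to 24.5 in the DMSO controls, a log2 difference of -1.98 ± 0.36. The 2 zeros belong to replicates 3 and 4, and within the first set alone the difference was -1.05 ± 0.41 and not called. At 2.5 µM TGM1 was already lower under arsenic (-1.42 ± 0.24), lead (-1.27 ± 0.24) and copper (-1.03 ± 0.23). In the second set alone the calls at 2.5 µM were lost for lead (-1.16) and copper (-1.225) and kept for arsenic (-1.79). The values of arsenic went from 15.1 to 32.3 CPM at 0.025 µM through 15.7 to 22.9 and 6.602 to 17.3 CPM to the values above, a fitted slope of -0.55 ± 0.09 log2 units for each 10-fold step in dose.

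DSG3, the desmosomal cadherin of the lower epidermal layers, was lowest under arsenic. Its 4 arsenic libraries at 25 µM had 0.107, 3.23, 13.8 and 4.71 CPM against 41.9 to 94.5 CPM in the controls, all 4 below every control, for a log2 difference of -3.61 ± 0.34 (SE). The spread among those 4 was wide, and the difference was -5.11 in the first set and -2.98 in the second, called in both. At 2.5 µM arsenic the values of DSG3 were 29.2, 30.8, 8.83 and 22.3 CPM, again all below the controls. Copper gave 35.4, 22.5, 35.3 and 30.6 CPM at 25 µM and 22.01, 31.7, 27.6 and 16.3 CPM at 2.5 µM, so its lower dose was not the less affected one. The 2 log2 differences were -1.05 ± 0.26 and -1.40 ± 0.26. Copper at 0.025 and 0.25 µM also had low values of DSG3, 26.3 to 42.7 and 23.4 to 35.2 CPM, which were not called. The copper trend of DSG3 over the doses was not called either (-0.08 ± 0.10 log2 units for each 10-fold step).

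Lead at 25 µM had 28.1, 24.5, 44.7 and 27.2 CPM of DSG3 (-1.05 ± 0.26) and cadmium 26.4 and 16.8 CPM (-1.56 ± 0.54). The median log2 difference over all tested genes in cadmium was -1.39, so DSG3 did not stand apart from the bulk there. Cadmium was called only with both libraries in the fit, and its log2 differences without replicate 1 and without replicate 2 were -1.93 and -1.29. Copper lost its call at 25 µM without replicate 2 (-0.93), and lead without replicate 2 (-0.96) or replicate 4 (-0.97) and in the second set alone (-1.05). Under thiram DSG3 had 8.61 to 16.3 CPM against 7.78 to 47.7 in the controls, so the groups overlapped, and the difference of -0.86 ± 0.32 was not called without replicate 2 (-0.71) or replicate 3 (-0.89), with RLE scaling (-0.78) or with only the 2 groups in the fit (-0.85). In the first set alone it was -0.52 and not called, and in the second set alone it was -1.24 and called.

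CLCA2, a chloride channel regulator of basal epithelial cells, had the widest change in arsenic. The controls of the metals plate had 12.4 to 39.4 CPM with a median of 30.2. Arsenic at 25 µM left 0.965, 0.120, 0.6504 and 0.0798 CPM, 16 counts in all, for a log2 difference of -6.07 ± 0.52 (SE). The dose series of CLCA2 under arsenic ran from a median of 22.3 CPM at 0.025 µM over 12.9 and 10.1 CPM to 0.385 CPM, and replicates 3 and 4 at 2.5 µM (2.55 and 4.50 CPM) were well below replicates 1 and 2 (15.7 and 18.6 CPM). Copper at 25 µM had 12.01, 10.98, 14.5 and 11.8 CPM and lead 10.5, 8.68, 13.2 and 4.54 CPM, with 3 libraries of each below every control. Their log2 differences were -1.25 ± 0.31 and -1.65 ± 0.32, and that of copper was not called without replicate 1 (-1.24). The copper medians of CLCA2 were 15.9, 14.5, 13.6 and 11.9 CPM from the lowest to the highest dose. They lay under the control median at every dose, and the copper trend was not called (-0.14 ± 0.11). In the second set alone copper was called for none of CLCA2 (-1.01), TGM1 (-1.38) and DSG3 (-1.17).

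Cadmium had 0 and 11.2 CPM of CLCA2 at 25 µM, a log2 difference of -2.46 ± 0.79 that was not called without replicate 1 (-1.38). The cadmium libraries were shallow, and the median log2 difference over all tested genes in this contrast was -1.39, so a gene with that value did not stand apart from the bulk. The part of depth in the cadmium values was not tested. In thiram at 25 µM 3 libraries were at 0 for CLCA2 and the other had 12.8 CPM, above the control median of 7.33 CPM. That difference of -1.73 ± 0.62 was called only with all of replicates 1, 2 and 3 in the fit, and the values without each of them were -1.21, -1.18 and -1.23. In the first set alone, where both thiram libraries were at 0, CLCA2 was called lower, and in the second set alone it was not called (-0.80).

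**Figure D2:**
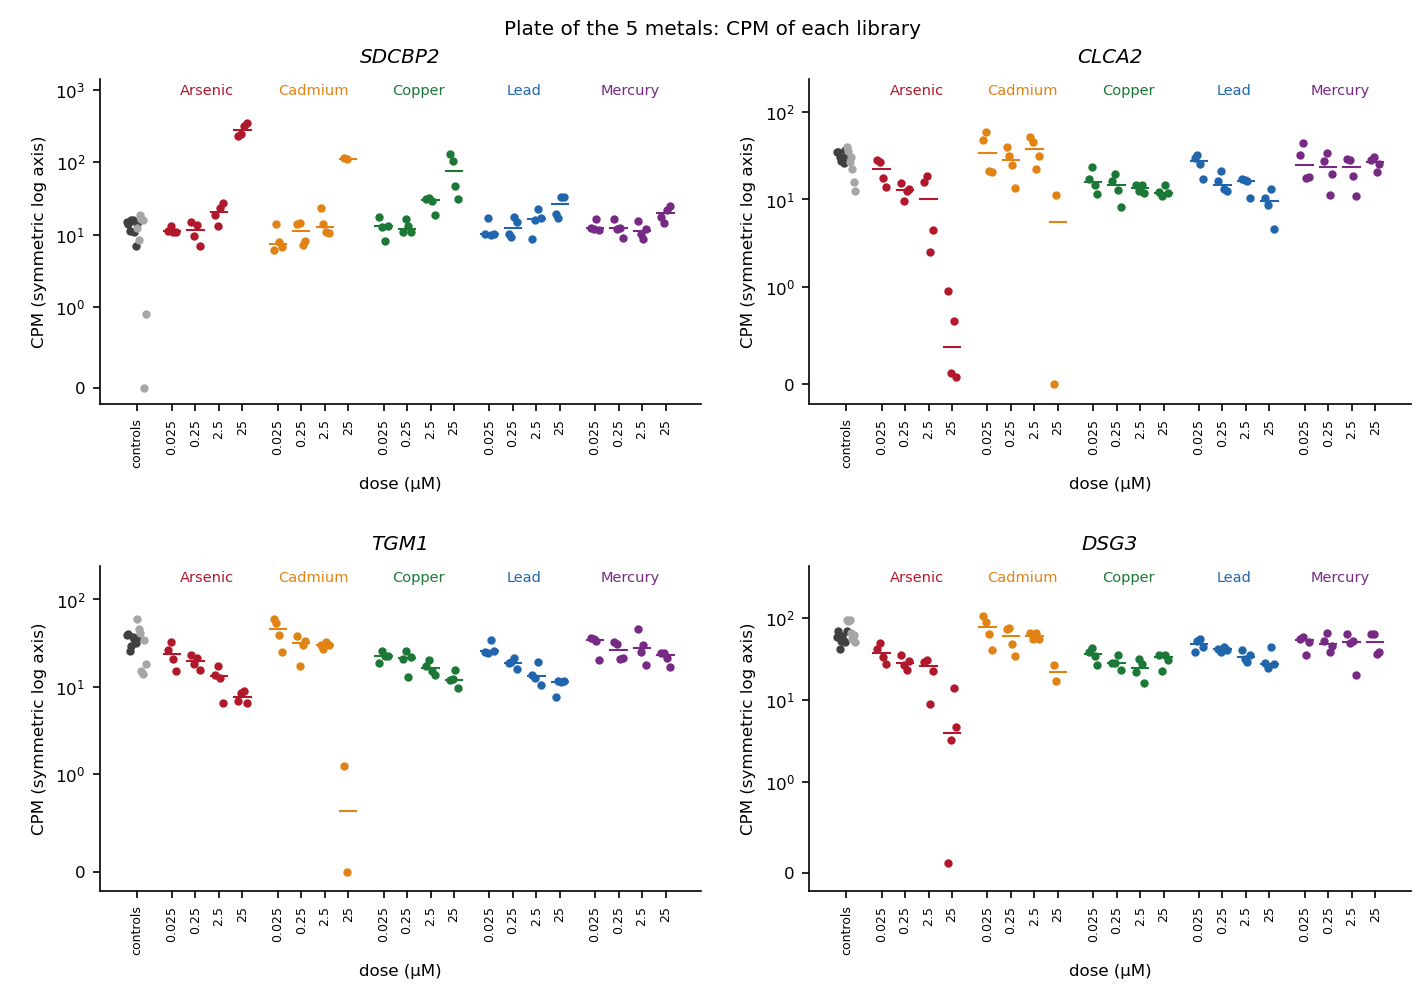
CPM of SDCBP2, CLCA2, TGM1 and DSG3 in each library of the metals plate, by metal and dose in µM, on a symmetric log axis that is linear below 1; dark grey points are the first 8 water controls, light grey the last 7, and bars are group medians. SDCBP2 climbed to 230 CPM or more in the arsenic libraries at 25 µM, while CLCA2 and DSG3 dropped below every control there and TGM1 fell to 1.26 and 0 CPM in the 2 cadmium libraries.

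SDCBP2, the gene for syntenin-2, moved the other way. In the controls of the metals plate it had 0 to 18.6 CPM with a median of 13.9. At 25 µM arsenic gave 230, 245, 313 and 348 CPM, cadmium 114 and 109 CPM, copper 130, 104, 47.5 and 31.3 CPM and lead 19, 16.8, 33.3 and 33.5 CPM. Every library of arsenic, cadmium and copper and 3 of 4 for lead lay above all 15 controls. The log2 differences were 4.55 ± 0.24 (SE) for arsenic, 3.21 ± 0.38 for cadmium, 2.69 ± 0.24 for copper and 1.08 ± 0.26 for lead. The cadmium value is unlike that of most genes there, whose median was -1.39.

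In copper the increase of SDCBP2 was already called at 2.5 µM, with 31.2, 31.9, 28.8 and 18.5 CPM and a log2 difference of 1.19 ± 0.26. That increase was not called in the second set alone (1.14). In arsenic at 2.5 µM the values were 18.6, 12.98, 23.1 and 27.6 CPM, not called, and 3 of them were at or above the highest control. The fitted slopes per 10-fold dose were 1.47 ± 0.12 for arsenic, 1.14 ± 0.15 for cadmium and 0.89 ± 0.11 for copper. With the sets fitted alone lead was called in the second (1.64) and not in the first (0.47), and with both it was not called without replicate 3 (0.93) or replicate 4 (0.95). Mercury at 25 µM had 17.8, 14.4, 21.7 and 24.5 CPM, 2 of them above all controls, and its difference of 0.69 ± 0.27 was not called. Under thiram at 25 µM SDCBP2 had 84.3, 49.5, 44.3 and 12.4 CPM against 8.37 to 21.2 in the controls, a difference of 1.81 ± 0.33, with replicate 4 inside the control range, and it was not called in the second set alone (1.16).

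**Figure D3:**
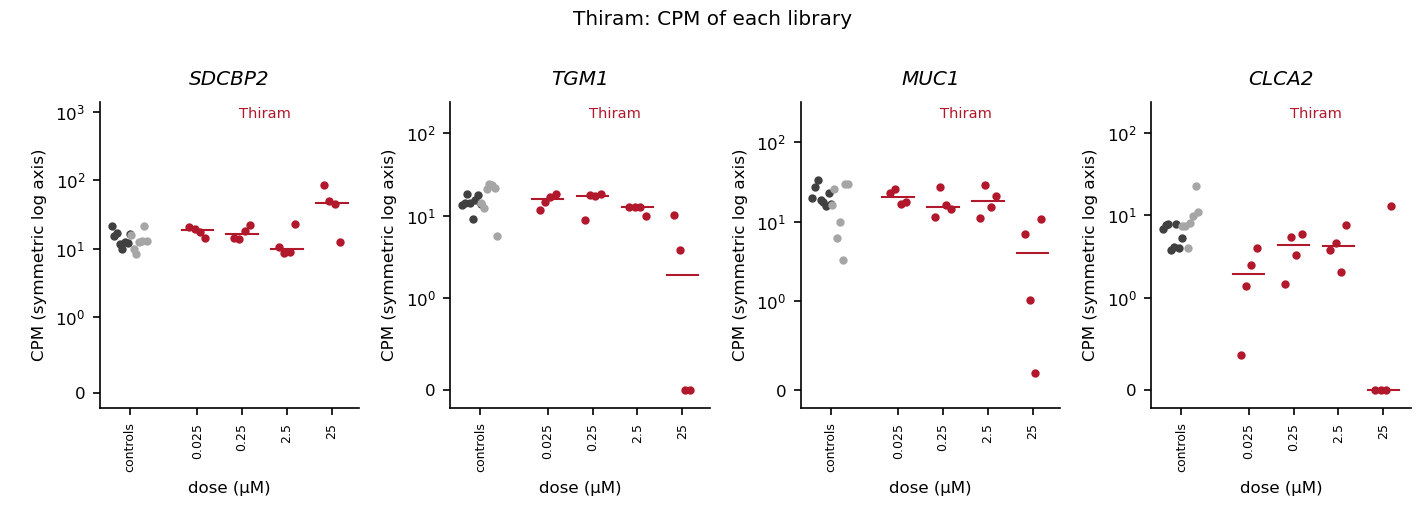
CPM of SDCBP2, TGM1, MUC1 and CLCA2 in each thiram library by dose in µM, on a symmetric log axis that is linear below 1, with the DMSO controls of the thiram plate (dark grey the first 8, light grey the last 7) and bars at group medians. At 25 µM 3 libraries were above all controls for SDCBP2, 3 were below them for TGM1 and CLCA2, and 1 library stood at 12.8 CPM for CLCA2.

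LCN2, which encodes the siderophore-binding lipocalin 2, was called at 25 µM for 1 of the 20 chemicals in which it was tested, arsenic, where it was higher. Whether arsenic differed from the other chemicals was not tested. Its 4 arsenic libraries at 25 µM had 114, 102, 55.3 and 79.5 CPM, and the highest of the 15 controls had 11.1 CPM. The log2 difference was 4.32 ± 0.62 (SE), and it was called in each set alone (4.16 and 6.59). No lower dose of arsenic approached this: the medians were 3.06, 2.83 and 2.90 CPM at 0.025, 0.25 and 2.5 µM. Copper had the opposite sign at 2.5 µM, with 0.515, 0.343, 0 and 0 CPM and a difference of -4.32 ± 1.21, a call that was lost without any 1 of the 4 replicates (-3.88 to -4.98). The zeros of LCN2 followed the 2 sets: 0 of the first 8 controls and 5 of the last 7 were at 0. In all 19 dosed groups of 4 on the metals plate, replicates 1 and 2 both lay above replicates 3 and 4.

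MUC1, the transmembrane mucin of glandular surfaces, was lower in arsenic, thiram and DDE at 25 µM. Arsenic had 6.11, 4.55, 3.90 and 7.90 CPM against 5.74 to 51.9 in the controls, with 2 libraries below all of them, and a log2 difference of -2.32 ± 0.56 (SE). Much of the control spread was between the sets, and against the controls of their own set the differences were -2.84 in the first and -1.07 in the second, called in both. Thiram had 7.01, 1.05, 0.197 and 10.8 CPM against 3.33 to 32.9, a difference of -2.22 ± 0.42. Copper, lead, mercury and cadmium had no MUC1 call, with differences from -0.0034 (cadmium) to -0.79 (lead). Both cadmium libraries belong to the first set, and at 32.6 and 23.8 CPM they lay below the first 8 controls (33.6 to 51.9 CPM). Within that set the cadmium difference was -0.45 and not called.

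**Figure D4:**
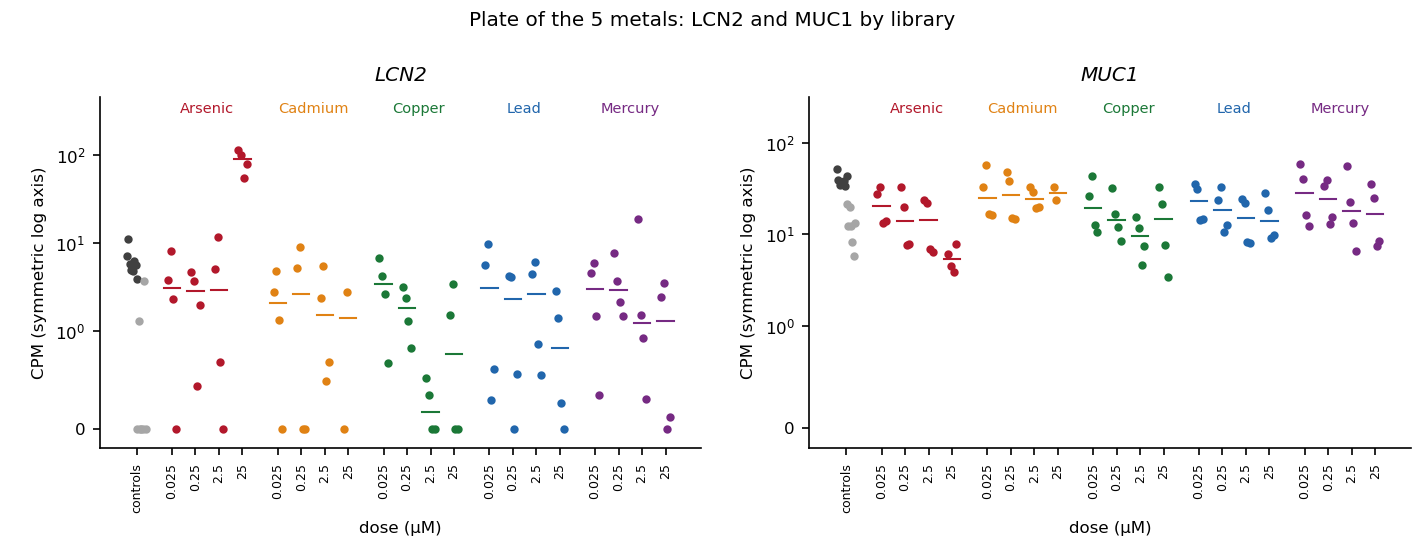
CPM of LCN2 and MUC1 in each library of the metals plate, by metal and dose in µM, on a symmetric log axis that is linear below 1; dark grey points are the first 8 water controls, light grey the last 7, and bars are group medians. LCN2 stood at 55.3 to 114 CPM in arsenic at 25 µM, and MUC1 split into a higher and a lower pair of libraries in most dosed groups.

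On the DDE plate MUC1 did not follow the dose. The 8 controls had 32.1 to 78.2 CPM, and 13 of the 16 DDE libraries had 3.005 to 17.5 CPM, below all of them, at every dose from 0.025 µM up. The other 3 DDE libraries, 1 each at 0.025, 0.25 and 2.5 µM, had 38.04 to 66.7 CPM, within the control range. These libraries, numbers 16, 9 and 8, were also the highest of their groups for SDCBP2 (95.3, 82.3 and 129.9 CPM) and DSG3 (76.7, 62.6 and 72.9 CPM). For TGM1 none of them was the highest, and for CLCA2 only library 9 was. MUC1 in the 4 libraries at 25 µM was at 14.1, 10.5, 13.5 and 3.005 CPM, a log2 difference of -2.31 ± 0.61. That call was lost without replicate 2 (-2.32) or replicate 3 (-2.46), though the value hardly moved. The controls are labelled water and as wells of the metals plate, and DDE is labelled DMSO on a plate of its own, so by the labels DDE, its solvent and the plate cannot be told apart here.

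At 25 µM 15 chemicals had no called gene among the 10. In the first set alone MUC1 was called lower for BPF (-1.53) and MPB (-1.16), and neither was called in the second set alone (-0.74 and -0.20). SDCBP2 differences among them ranged from -0.69 (PFDA) to 0.69 (mercury) with a median of -0.01, and 5 of 60 libraries lay above all controls and 5 below. TGM1 ranged from -0.87 (MPB) to 0.23 (PPB), CLCA2 from -1.08 (BPF) to 0.57 (PFNA) and MUC1 from -1.20 (BPF) to 0.23 (phenanthrene). DSG3 ranged from -0.89 (PFDA) to 0.36 (PFOS), with 21 of 60 libraries below all the controls of their plate and 2 above. A gene that missed the threshold here is not shown to be unaffected.

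The wider differentiation program was followed in 6 lists of genes that are not among the 10, chosen by name. Under arsenic at 25 µM 38 of 73 tested list genes were called, 17 higher and 21 lower. Thiram had 24 of 57 (14 higher, 10 lower), cadmium 26 of 73 (11 higher, 15 lower), copper 12 of 73 (8 higher, 4 lower), lead 9 of 73 (1 higher, 8 lower) and DDE 9 of 46 (2 higher, 7 lower). As shares of the tested list genes, beside those of all genes, these were 52.1% and 39.7% in arsenic, 42.1% and 30.8% in thiram, 35.6% and 25.5% in cadmium, 16.4% and 3.05% in copper, 12.3% and 2.28% in lead, and 19.6% and 3.88% in DDE. No test compared the lists with the other genes. In arsenic and thiram the lists were thus called in both directions, with the direction differing between lists. Leaving the dosed libraries of 1 replicate number out of the fit weighed on 3 of these counts. Cadmium had 9 called without replicate 2, and copper had 6 without replicate 1 or 2. DDE had 0 called without replicate 2 or 3, and 3 without replicate 4.

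Among envelope precursors other than the 10 genes, arsenic had 8 of 18 higher and 1 lower, with a list median log2 difference of 2.63 against 0.02 over all genes. CSTA, which encodes the envelope protein cystatin A, rose from 17.96 to 56.2 CPM in the controls to 138 to 215 CPM in arsenic (log2 2.21, edgeR adjusted p 8.4e-17) and from 14.2 to 29.8 to 31.8 to 55.1 CPM in thiram (log2 0.90, edgeR adjusted p 0.0025). SPRR2D, named after its values were seen, had a control median of 0 and a highest control of 0.0944 CPM. It stood at 55.5 to 100.2 CPM in arsenic at 25 µM and at 3.16 to 12.4 CPM in thiram (highest control 0.336 CPM). SPRR2D was called in both, but it was picked by these values, so the calls add nothing to the levels. SPRR2D belongs to a family of near-identical copies, so its share of their reads is uncertain. SPRR2B, SPRR2E and SPRR2F of that family are also among the 8 precursors called higher in arsenic, so that count and the list median are uncertain too. PPL, the gene of the plaque protein periplakin, was the 1 precursor called lower in arsenic, lead and thiram. Thiram had 3 of 11 precursors higher and 1 lower. Cadmium had 4 of 18 precursors higher and 0 lower, copper 2 higher, lead 1 lower and DDE 0 of 7 called (edgeR). Over all genes 39.7% were called in arsenic, 30.8% in thiram, 25.5% in cadmium, 3.05% in copper, 2.28% in lead and 3.88% in DDE. The cadmium count of precursors was under the share over all genes.

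Desmosome genes other than DSG3 were only called lower. Arsenic had 6 of 9, cadmium 8 of 9, copper 2 of 9 and lead 3 of 9 called, and thiram and DDE 3 of 8 each. Over all genes 39.7% were called in arsenic, 25.5% in cadmium, 3.05% in copper, 2.28% in lead, 30.8% in thiram and 3.88% in DDE. The list medians were -0.87, -1.15, -0.17, -0.26, -0.06 and -0.21 in that order, against -1.39 over all genes in cadmium and -0.11 to 0.02 in the others. PKP2, which encodes the plaque protein plakophilin 2, had 8.68 to 23.5 CPM in arsenic against 64.3 to 101.8 in controls (log2 -2.27, edgeR adjusted p 1.0e-20). DSP, the desmoplakin gene, had 44.9 to 93.8 CPM in arsenic against 168.2 to 258 (log2 -1.62, edgeR adjusted p 2.3e-19) and 66.5 and 93.8 CPM in cadmium (log2 -1.48, edgeR adjusted p 2.2e-07). PERP, a p63-regulated desmosome gene, was lower in thiram, at 298.9 to 367.2 CPM against 381 to 516.8 (log2 -0.35, edgeR adjusted p 7.4e-05).

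Transcription factors of differentiation were called in both directions. KLF4, a factor of barrier formation, rose to 17.1 to 33.6 CPM in arsenic (controls at most 9.63; log2 2.98, edgeR adjusted p 1.3e-11) and to 48.4 to 86.5 CPM in thiram (controls at most 9.45; log2 3.79, edgeR adjusted p 2.6e-15). NOTCH1, the receptor that promotes leaving the basal layer, rose in thiram (log2 1.84, edgeR adjusted p 8.2e-12) and was called lower in arsenic. TP63, the basal epithelial regulator, fell in arsenic from 7.30 to 26.1 CPM to at most 1.36 CPM (log2 -4.55, edgeR adjusted p 2.8e-15). In the 2 cadmium libraries TP63 and the keratin gene KRT80 were both at 0, where 3 counts over the group would be 1.99 CPM, against control minima of 7.30 and 10.7 CPM. KRT10, the early keratin of suprabasal cells, rose in cadmium (log2 1.61, edgeR adjusted p 2.1e-07) and thiram (log2 1.12, edgeR adjusted p 3.6e-10), while KRT80 fell in arsenic (log2 -2.37, edgeR adjusted p 1.1e-08).

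Crosslinking, lipid and protease genes had 5 of 13 lower and 1 higher in arsenic and 3 of 12 lower and 2 higher in thiram, where 39.7% and 30.8% of all genes were called. ST14, the gene of the membrane protease matriptase, fell in arsenic from 64.2 to 110 CPM to 21.4 to 43.7 CPM (log2 -1.38, edgeR adjusted p 6.3e-13) and in cadmium to 8.40 and 23.9 CPM (log2 -2.29, edgeR adjusted p 3.8e-07). ALOXE3, a barrier lipoxygenase gene named after its values were seen, rose in arsenic to 25.1 to 37.1 CPM against at most 4.10 (log2 4.17). In thiram it rose to 9.94 to 32.7 CPM against at most 4.33 (log2 4.04). ALOXE3 was called higher in both and in cadmium and copper, and as it was picked by its values the calls add nothing to the levels. Of the surface and defence genes PI3, which encodes the protease inhibitor elafin, rose in arsenic to 23.02 to 118.5 CPM against 0.574 to 17.9 (log2 2.84, edgeR adjusted p 1.5e-07). In bulk RNA, fewer cells of a type and less RNA per cell cannot be told apart.

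The next contrasts compared control wells alone. The dosed libraries by which the genes were known were in the same fit and shared its filter, scaling and estimate of spread. On the PFAS plate CLCA2 was higher in water than in DMSO: 9.23, 7.94, 11.7 and 19.2 CPM in the 4 water controls against 0.759 to 5.98 CPM in the 12 DMSO controls, without overlap. The log2 difference was 2.12 ± 0.37 (SE) with an adjusted p of 3.6e-05 by edgeR's quasi-likelihood test, and 4.79% of all genes were called. CLCA2 was the 1 of 7 tested members called. With the first set alone the difference was 1.73 and was not called. PFOA, the chemical given in water, had the highest group median of CLCA2 on that plate, 10.1 CPM at 0.025 µM, and the lowest was 1.38 CPM in PFDA at 0.25 µM. MUC1 had 12.6 to 23.7 CPM in water against 7.43 to 16.1 in DMSO, a log2 difference of 0.58 ± 0.23 that was not called (edgeR adjusted p 0.15).

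**Figure D5:**
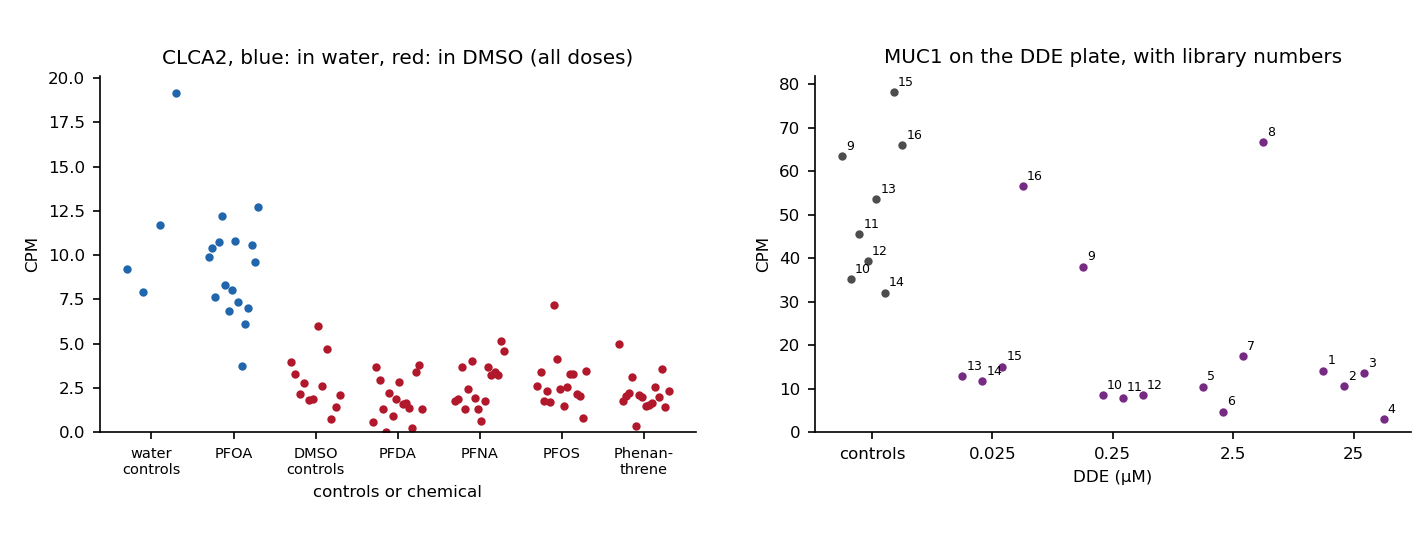
Left, CPM of CLCA2 in each library of the PFAS plate, blue for water and red for DMSO, with all doses of a chemical together; right, CPM of MUC1 in each library of the DDE plate by dose in µM, with library numbers beside the points. The 4 water controls lie between 7.94 and 19.2 CPM, above all 12 DMSO controls, and 3 DDE libraries lie within the range of the 8 controls of MUC1.

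Controls of the first and second sets differed in 1 of 9 members on the metals plate and 1 of 8 on the thiram plate, where 8.36% and 4.36% of all genes were called. On the bisphenol and PFAS plates 0 of 8 members each were called by edgeR, with 2 each at an unadjusted p under 0.05, and 1.54% and 0.157% of all genes were called. With 1 dispersion for all genes neither of the 2 calls was made, and DESeq2 made 4 over the 4 plates. On the metals plate MUC1 had 33.6 to 51.9 CPM in the first 8 controls and 5.74 to 21.5 CPM in the last 7, without overlap (log2 1.53 ± 0.43, edgeR adjusted p 0.013). In 18 of the 19 dosed groups of 4 on that plate MUC1 was likewise higher in both of replicates 1 and 2 than in replicates 3 and 4. On the thiram plate DSG3 had 11.3 to 22.1 CPM in the first 8 controls and 7.78 to 47.7 CPM in the last 7 (log2 -0.84 ± 0.25, edgeR adjusted p 0.032), and the groups overlapped. The depth of the control sets moved with these values, as given above, and its part was not tested.

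Across the 80 dosed groups of 4 plates, centred on the plate, the levels of CLCA2 and DSG3 went together (Pearson r 0.82), as did CLCA2 and TGM1 (0.71), while SDCBP2 ran against CLCA2 (-0.72). These are descriptions over groups that share libraries' plates and depth. Without the 25 µM groups of arsenic, thiram and cadmium, over 77 groups, the 3 values were 0.69, 0.61 and -0.35. The genes most like SDCBP2 were SQSTM1 (0.91) and ANXA5 (0.90), and over the 77 groups CDK5RAP2 (0.74) and NQO1 (0.73). The nearest to TGM1 was RNF145 (0.90), those to CLCA2 were GLUD1 (0.86) and MPZL2 (0.85), to DSG3 CD70 (0.86) and TRIM29 (0.83), to MUC1 CDH3 (0.79) and CCDC69 (0.77), to LCN2 HAX1 (0.74) and FKBP9 (0.69) and to IVL MORC4 (0.50) and ATF5 (0.49). GLUD1 for CLCA2 and CDH3 for MUC1 were also among the nearest over the 77 groups, with 0.77 and 0.63.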

How the data were processed

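The authors deposited raw counts of reads by gene symbol, with a file for each library. Per the submitters' processing notes the authors used FastQC, MultiQC, STAR, featureCounts and GRCh38; strand and multi-mapping settings are not stated there. From these counts CPM were computed on TMM-scaled library sizes. Each plate was fitted with edgeR 4.0.16 in R 4.3.3 (filterByExpr with a minimum count of 10 and total of 15, trended dispersion, glmQLFit and glmQLFTest), 1 mean per group, with Benjamini-Hochberg adjustment over all genes tested and a call at 0.05. A single dispersion for all genes called too many unchanged low genes in simulated counts, so it became an alternative, added after the data were seen. DESeq2 1.42.0 was another. The trend weights were 1 and 3 on either side of the middle. Libraries were grouped by labelled chemical and dose and by plate barcode with its suffix. Counting intervals cover counting error only, since no molecular identifiers are mentioned.

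The 10 genes and the lists were chosen with earlier results of these data known. Named list genes were, per list and for arsenic, thiram and cadmium, up to 2 called genes of largest fold whose average log2 CPM reached 2 and with all dosed libraries outside the control range. Neighbours were the 2 genes of highest Pearson correlation of log2(CPM + 1). A named list gene and a neighbour are not reported here. Same-numbered libraries of different doses deviated together, with every pairwise correlation over 0.1, in 4 of 21 chemicals: copper (0.138 to 0.426), lead (0.265 to 0.366), mercury (0.239 to 0.506) and PFOA (0.145 to 0.301). Their numbers were treated as paired, and the block was fitted on the dosed libraries of a chemical.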

Additional observations from a re-analysis of the deposited data

Results flagged for a closer look

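Of 48 groups of 4 to 10 libraries examined for a library far from the rest, 6 had one. The rule's rate of about 1 in 20 by chance assumes normally distributed values. A group with 1 library above 0 is always flagged, as for CLCA2 in thiram and IVL in the controls below. Nothing is therefore read from 6 of 48 against 1 in 20. In lead at 25 µM replicate 1 had 7.611 CPM of TGM1 beside 11.3 to 11.8 in the other 3. In PCB153 at 0.25 µM replicate 3 had 224.5 CPM of SDCBP2 beside 11.6 to 17.8. In thiram at 25 µM replicate 4 had 12.83 CPM of CLCA2 and the others 0. On the DDE plate library 16 at 0.025 µM had 56.62 CPM of MUC1 beside 11.7 to 15.04, and library 9 at 0.25 µM had 38.04 CPM beside 7.91 to 8.52. Control 14 of that plate had 0.452 CPM of IVL, from 3 counts, and the other 7 were at 0.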

How the results depend on the processing

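Over 35 results for single genes, 390 of 442 alternative values kept their direction and side of the threshold, 51 lost the call and 1 reversed (SDCBP2 in PCB153 at 0.25 µM, -0.105 in the first set alone); 15 of the 35 were unchanged under every alternative run. The cause of the changes below was not tested, except that leaving out replicates or a set leaves fewer libraries. With 1 dispersion for all genes, calls at 25 µM were 2 for cadmium in place of 4, at 0.25 µM 6 in place of 1, in the trends 2 for cadmium and 2 for copper, 0 between control sets in place of 2, and among list genes 11 for cadmium (26) and 14 for DDE (9). DESeq2 called 8 at 0.25 µM, 2 in the copper trend, 4 between control sets and 14 DDE list genes. RLE scaling gave 2, no filter 3 and the 2 groups alone 5 calls at 0.25 µM, and the 2 groups alone gave 3 for thiram in place of 5. The second set alone called 1 member for copper at 25 µM, 3 for thiram, 0 in the lead trend, 1 in the thiram trend and 4 copper list genes (12); the first set alone called 3 for thiram and 0 between solvents in place of 1. A term for the sets gave 3 in the copper trend and 15 lead list genes (9). A term for DDE-plate libraries 1, 8, 9 and 16 gave 3 members and 21 list genes for DDE. With the library set aside put back, the lead trend had 1 call.

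Without a replicate, calls at 25 µM ranged from 2 to 4 for cadmium, 0 to 1 for DDE, 2 to 4 for lead and 3 to 5 for thiram; those over all chemicals from 0 to 1 at 0.025 µM, 1 to 2 at 0.25 µM and 5 to 7 at 2.5 µM; the trends from 2 to 4 for cadmium and 0 to 2 for lead; and list genes from 9 to 27 for cadmium, 6 to 9 for copper and 0 to 13 for DDE. With the replicate block the trend called 4 for copper and 5 for lead and the same counts as without it for arsenic, cadmium and thiram. Fold changes of genes with a few counts are limited by depth.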

Other observations

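The library labelled cadmium at 25 µM that carries the barcode of the thiram plate had 1.28 M counts. It had 7.01 CPM of SDCBP2 (9 counts), where the other 2 libraries of that label had 114 and 109 CPM. TGM1 was at 40.5 CPM in it and at 1.26 and 0 CPM in the other 2. DSG3 was at 32.7 CPM, MUC1 at 18.7 CPM and CLCA2 at 0. Against the water controls of the metals plate, its SDCBP2, TGM1 and MUC1 values lay within the range (0 to 18.6, 14.2 to 59.2 and 5.74 to 51.9 CPM), and its DSG3 and CLCA2 values lay below it (41.9 to 94.5 and 12.4 to 39.4 CPM).

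The 2 sets of replicate numbers on the metals plate showed in other members too. Among the 19 dosed groups of 4, replicates 1 and 2 were both above replicates 3 and 4 in 14 groups for CLCA2, 8 for DSG3, 7 for TGM1 and 5 for SDCBP2, and both below in 0, 1, 2 and 6.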
